A study of Rattus norvegicus with 9 samples.

Results

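The 9 genes examined here encode the transcription factors that hold hepatocytes in their differentiated state: the nuclear receptor Hnf4a, the forkhead factors Foxa1, Foxa2 and Foxa3, the leucine zipper factors Cebpa and Cebpb, the cut-homeodomain factor Onecut1, and the drug-sensing receptors Nr1i2 (PXR) and Nr1i3 (CAR). They were chosen by symbol, and all 9 were found among the 16730 genes listed in both deposited tables and passed the filter on low counts. Liver RNA was sequenced from 9 male Sprague-Dawley rats, 3 in each group. The normal control group received neither of the agents named below. The model group received carbon tetrachloride (CCl4), a hepatotoxin used to produce liver fibrosis, by mouth at 2 ml/kg as a 50% solution in oil for 9 weeks. The TA group received the same CCl4 and then the triterpene tormentic acid (TA) for 6 weeks. Its dose was taken as 3 mg/kg from the study's design text, since the labels of these libraries carry no dose. The study also had a group treated with a lower dose of TA after CCl4. All rats were fasted for 12 h before the liver was taken. The model is a chemical injury of the whole organ, and the libraries hold RNA of all liver cells, so that fewer hepatocytes and less RNA per hepatocyte cannot be told apart in any value below.

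Hepatocyte identity is kept by a small circuit of factors that occupy each other's promoters and many liver enhancers together. Hnf4a drives genes of lipoprotein secretion, clotting, bile acid synthesis and gluconeogenesis, and is needed for the epithelial form of the hepatocyte. The Foxa factors open chromatin at liver genes in the embryo, Onecut1 (HNF6) acts in the choice between hepatocyte and bile duct fates and on glucose metabolism, Cebpa supports the metabolic and non-dividing state, and Cebpb is induced in the acute phase response and in regeneration. Nr1i2 and Nr1i3 pair with the retinoid X receptor and switch on cytochrome P450 genes when foreign compounds reach the liver.

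Between 13156735 and 18090405 reads were counted on genes per liver. The first model rat stood apart: its 50 most abundant genes took 27.9% of the counts, against 40.4% to 45.7% in the other livers, and its TMM factor was 1.69, against 0.816 to 1.16. The log2 fold changes of most members between model and normal livers are therefore also given without it. The medians of the members, and the medians and calls of the other gene lists, include it and may rest on it. The labelled tissue carried its markers: all 12 hepatocyte markers examined, among them Alb, Ttr and Apob, were counted in every group, with a summed level of 152898 to 193389 counts scaled to library size after TMM (CPM) in normal livers. Of the pair of pancreas markers in the tables, Cpa1 was at 0 in every normal and TA library and Cel was at most 1.42 CPM in any liver.

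Promoter letters were available for 7 of the 9 genes, in 8 windows that run from 250 bases before to 50 bases after an annotated transcription start (RefSeq, assembly GRCr8, a different build from any the labels name). Each window lies before an annotated start and on the beginning of the exon from there. Of the Hnf4a windows, the downstream one lies beyond the other Hnf4a start, and so not upstream of the whole gene. Each was searched on both strands for a forkhead motif (TGTTTAC), a C/EBP motif (TTGCNNAA), an HNF4 motif (CAAAGTCCA), a Onecut motif (ATTGAT) and a TATA box (TATAAA), which were present in 3.78%, 10.6%, 0.391%, 8.06% and 14.2% of all 33469 windows. The TATA box was chosen after the windows had been read. The sequences below are those of the genes on which the results turn, with matches in capitals; where overlapping matches lie on both strands, the capitals cover both. The first pair shows the separate starts of Hnf4a, at chr3:172605970-172606269 and chr3:172641586-172641885, both on the plus strand. The next pair shows Cebpa at chr1:96896334-96896633 and Cebpb at chr3:176816755-176817054, both on the plus strand, the members with the smallest p-values in Model VS Normal. Foxa2 at chr3:155927459-155927758, on the minus strand, and Nr1i3 at chr13:86165170-86165469, on the plus strand, complete the set.
Hnf4a, upstream start: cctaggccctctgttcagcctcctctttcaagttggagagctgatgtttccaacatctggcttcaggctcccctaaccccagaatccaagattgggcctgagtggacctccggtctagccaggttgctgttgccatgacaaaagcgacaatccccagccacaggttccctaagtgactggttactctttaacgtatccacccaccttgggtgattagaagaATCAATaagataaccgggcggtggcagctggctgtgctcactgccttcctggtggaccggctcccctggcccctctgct
Hnf4a, downstream start: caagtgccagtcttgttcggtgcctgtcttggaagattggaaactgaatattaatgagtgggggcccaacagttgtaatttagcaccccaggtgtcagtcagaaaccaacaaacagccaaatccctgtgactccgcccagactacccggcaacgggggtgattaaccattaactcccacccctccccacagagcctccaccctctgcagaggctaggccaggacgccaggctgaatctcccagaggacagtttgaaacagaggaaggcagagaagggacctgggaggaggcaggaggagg
Cebpa: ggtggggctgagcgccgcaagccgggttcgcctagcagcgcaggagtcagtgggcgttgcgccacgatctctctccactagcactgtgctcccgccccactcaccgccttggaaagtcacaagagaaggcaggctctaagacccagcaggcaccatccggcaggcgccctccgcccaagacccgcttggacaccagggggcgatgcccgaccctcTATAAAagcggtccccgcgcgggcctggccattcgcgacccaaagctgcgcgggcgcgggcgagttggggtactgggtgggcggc
Cebpb: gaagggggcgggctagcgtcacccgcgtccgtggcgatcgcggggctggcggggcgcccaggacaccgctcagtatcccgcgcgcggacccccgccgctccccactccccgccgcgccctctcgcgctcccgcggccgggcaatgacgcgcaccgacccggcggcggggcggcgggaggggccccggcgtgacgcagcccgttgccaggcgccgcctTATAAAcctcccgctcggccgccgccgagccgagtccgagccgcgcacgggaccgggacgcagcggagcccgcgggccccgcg
Foxa2: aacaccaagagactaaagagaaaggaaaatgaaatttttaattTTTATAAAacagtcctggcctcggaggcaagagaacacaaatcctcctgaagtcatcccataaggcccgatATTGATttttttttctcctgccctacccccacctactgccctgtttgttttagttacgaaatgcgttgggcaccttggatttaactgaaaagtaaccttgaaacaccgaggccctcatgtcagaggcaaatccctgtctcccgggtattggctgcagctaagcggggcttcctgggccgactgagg
Nr1i3: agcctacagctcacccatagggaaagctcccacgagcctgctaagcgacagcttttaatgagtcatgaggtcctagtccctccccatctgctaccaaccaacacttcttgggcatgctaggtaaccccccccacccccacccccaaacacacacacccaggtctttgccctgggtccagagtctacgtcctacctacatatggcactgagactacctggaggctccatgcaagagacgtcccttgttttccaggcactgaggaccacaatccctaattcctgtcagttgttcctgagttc

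The windows of Cebpb, Foxa3 and Cebpa were GC-rich, and the others were closer to the median of all windows. Cebpb had a GC content of 81.0% with 56 CpG dinucleotides, Foxa3 70.3% with 25 and Cebpa 68.7% with 28, whereas the median over all windows was 51.7% with 7. The other members lay near that median or below it. Both Hnf4a windows had 55.3%, Nr1i3 had 54.7%, Nr1i2 47.7% and Foxa2 46.7%, with between 4 and 8 CpG each. TATAAA stood 35 bases before the start of Cebpa, 33 before that of Cebpb and 82 before that of Foxa3, and 205 bases before that of Foxa2, where it overlapped a match on the other strand at 207. ATTGAT, the Onecut letters, was found 136 bases before the start of Foxa2 and, on the other strand, 29 bases before the upstream start of Hnf4a. No other match was present in the 8 windows, and a match describes letters, not a bound site.

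Per length, the members differed widely in level in normal livers. Deposited FPKM values, which are not scaled for composition, put Cebpb first, at 414 ± 67.0 FPKM (SD, n = 3), above 98.8% of all genes. Nr1i2 followed at 133 ± 15.9, Cebpa at 109 ± 15.4, Nr1i3 at 98.2 ± 7.46 and Hnf4a at 87.0 ± 2.03 FPKM. The forkhead factors were lower, Foxa3 at 18.3 ± 2.08, Foxa1 at 13.6 ± 6.33 and Foxa2 at 11.2 ± 2.06 FPKM. Onecut1 was the lowest, at 0.635 ± 0.234 FPKM, below the middle of all genes. In this order the ranges of neighbouring genes overlapped for Nr1i2 and Cebpa, Cebpa and Nr1i3, Foxa3 and Foxa1, and Foxa1 and Foxa2, so that the spread between rats did not set these neighbours apart, although Cebpa was above Nr1i3 in 3 of 3 rats. Cebpb stayed first and Onecut1 last in the model group, at 208 ± 54.1 and 1.99 ± 0.552 FPKM, and in the TA group, at 324 ± 78.1 and 4.84 ± 3.15 FPKM (SD, n = 3).

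**Figure D1:**
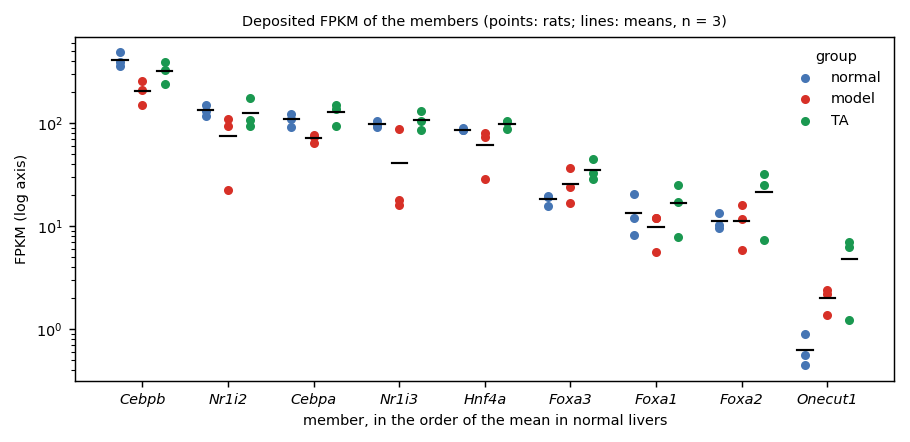
Deposited FPKM of each member on a log axis, one point per rat and a line at the mean of each group (n = 3), in the order of the normal means. Cebpb is highest and Onecut1 lowest in every group, and the mean of Onecut1 is 0.635 FPKM in normal and 4.84 FPKM in TA livers.

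Between the model and normal groups, Cebpb was the member that passed an adjusted p under 0.05, and Cebpa and Cebpb were the members that met the thresholds of the study for differentially expressed genes (DEGs), which ask for an absolute log2 fold change above 1 at an unadjusted p under 0.05. Both were lower in model livers. Of the 9 members, 1 was called at the adjusted threshold, all of it lower, where 7.87% of the 12730 genes tested were called and 1.01% were called lower. As DEGs 2 of 9 were called, both lower, where 22.1% of genes were called, 16.6% higher and 5.55% lower. At an unadjusted p under 0.05 alone these were also the 2 members, and 28.9% of genes passed. Model and normal livers did not overlap for 5 of 9 members (Hnf4a, Cebpa, Cebpb, Nr1i2 and Nr1i3), where 38.2% of all genes did not overlap. The median log2 fold change of the members was -0.98, from -1.68 to 1.12, against 0.02 over all genes, and 8 of 9 values were negative (6 of 9 with libraries scaled by their totals alone, where Foxa2 and Foxa3 turned positive). In every comparison, the median over all genes was not matched to the abundance of the members. For members without overlap the exact permutation p (two-sided) was 0.1, the smallest that 3 rats against 3 can give. The number passing the adjusted threshold rested on single rats: it was 0 without the second model rat or without any 1 of the normal rats, and 3 (Cebpa, Cebpb and Nr1i3) without the third model rat. With library totals in place of TMM, Onecut1 was the 1 DEG, higher in model livers (1.64, unadjusted p = 0.0106), Cebpb was at -0.99 (unadjusted p = 0.0216) and 0 members passed the adjusted threshold.

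TA VS Model, which shares its model livers with the comparison above, asks where TA-treated livers stood against untreated injured ones. All 9 members had positive log2 fold changes, from 0.83 to 1.67 with a median of 1.13, against -0.00 over all genes. None passed an adjusted p under 0.05 in edgeR's quasi-likelihood test, and neither did any of the 12781 genes tested, a share of 0%. Unadjusted, 3 members and 1999 genes (15.6%) had p under 0.05. DESeq2 called 2 members and 526 genes at the adjusted threshold, and limma voom with quality weights called 1 member and 169 genes. As DEGs 3 of 9 members were called, all higher (Cebpa, Cebpb and Onecut1), where 12.3% of genes were called, 2.11% higher and 10.2% lower, and with library totals in place of TMM 0 members were DEGs. The groups did not overlap for the same 5 members as above, where 23.1% of all genes did not overlap.

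In TA VS Normal, which shares its libraries with both comparisons above, the median log2 fold change of the members was 0.05, against -0.01 over all genes. None passed the adjusted threshold in edgeR's test, at which 0.263% of the 12179 genes tested were called. A fit blocked on rat number called 203 genes in place of 32 and still 0 members. Unadjusted, 3 members (Onecut1, Foxa3 and Cebpb) and 9.43% of genes had p under 0.05, DESeq2 called 1 at the adjusted threshold, which was Onecut1, and limma voom called 0. Onecut1 was also the 1 DEG of the 9, higher in TA livers, where 5.25% of genes were called and 4.24% were higher. TA and normal livers did not overlap for those 3 members, where 15.1% of all genes did not overlap.

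**Figure D2:**
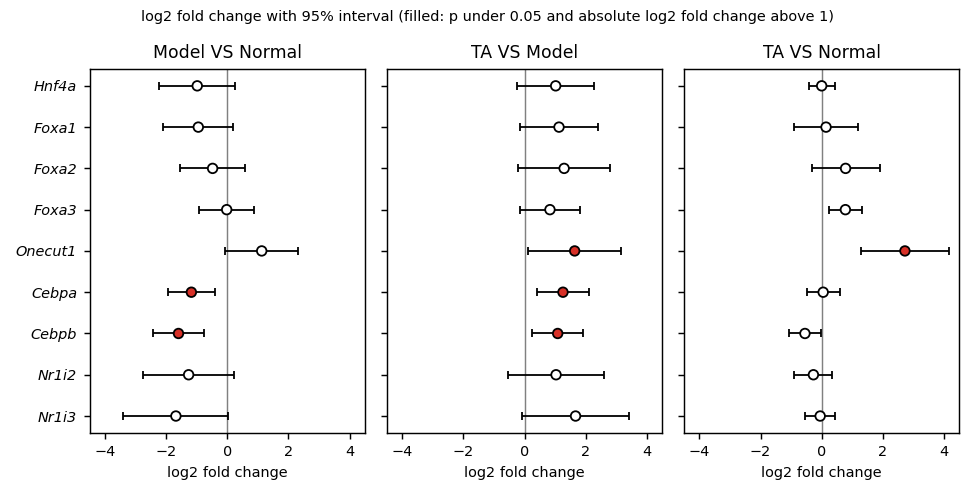
log2 fold change of each member in the 3 comparisons with its 95% interval from edgeR's quasi-likelihood fit; filled points are DEGs. Cebpa and Cebpb are filled below 0 in Model VS Normal, Cebpa, Cebpb and Onecut1 above 0 in TA VS Model, and Onecut1 above 0 in TA VS Normal.

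Hnf4a was the steadiest member in normal livers and one of the most variable in model livers. It was at 478, 474 and 517 CPM (TMM over all 9 libraries, as for every CPM here) in the normal control group, at 79.7, 329 and 334 CPM in the model group, and at 491, 459 and 547 CPM in the TA group. Every model liver lay below every normal and every TA liver, and the first model rat was the lowest by far. The coefficient of variation was 4.83% in normal, 58.7% in model and 8.93% in TA livers. The log2 fold change was -0.98 ± 0.54 (SE) in Model VS Normal, with an adjusted p of 0.261 in edgeR's test, and 1.02 ± 0.55 in TA VS Model, with an adjusted p of 0.389. Without the first model rat these were -0.58 and 0.61. Against normal livers, TA livers had a value of -0.00, with a 95% interval from -0.42 to 0.42.

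The forkhead factors differed among themselves. Foxa1 was at 23.1, 38.6 and 16.1 CPM in normal, 5.34, 16.8 and 18.2 in model and 28.1, 45.7 and 13.9 CPM in TA livers, and its groups overlapped in each comparison. Foxa2 was at 27.2, 25.0 and 36.8 CPM in normal, 7.81, 31.3 and 24.7 in model and 16.4, 79.1 and 60.5 CPM in TA livers, where the first TA rat was lower than every normal rat. The log2 fold changes of Foxa1 were -0.95 ± 0.50 (SE) and 1.13 ± 0.55 and those of Foxa2 were -0.48 ± 0.46 and 1.29 ± 0.65 in Model VS Normal and TA VS Model, and none passed the test (that of Foxa2 in Model VS Normal was 0.02 with library totals). Without the first model rat they were -0.60 and 0.75 for Foxa1 and -0.10 and 0.91 for Foxa2. Foxa3 was the member with the smallest difference between model and normal livers. It was at 39.2, 47.8 and 49.1 CPM in normal, 20.8, 65.8 and 47.5 in model and 60.2, 75.7 and 102 CPM in TA livers. The log2 fold change was -0.02, with a 95% interval from -0.92 to 0.88, in Model VS Normal, and its sign turned, to 0.30 without the first model rat and to 0.50 with library totals. Every TA liver was above every normal liver, by a log2 fold change of 0.77 ± 0.23 (edgeR, unadjusted p = 0.0100, adjusted p = 0.281).

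Onecut1 was the scarcest member and the only 1 of the 9 with a higher mean CPM in model than in normal livers. Its raw counts were 15, 38 and 19 in normal, 42, 74 and 69 in model and 232, 193 and 42 in TA livers, or 1.25, 2.45 and 1.59, 1.88, 4.87 and 4.88, and 16.5, 16.3 and 3.13 CPM. The first and second TA rats stood far above all other livers, whereas the third TA rat lay within the range of the model group. Onecut1 was 6.59-fold higher in TA than in normal livers, a log2 fold change of 2.72 ± 0.62 (SE; edgeR, unadjusted p = 0.00217, adjusted p = 0.147), and every TA liver was above every normal liver. The log2 fold change was 1.64 ± 0.65 in TA VS Model (unadjusted p = 0.0370, adjusted p = 0.300) and 1.12 ± 0.52 in Model VS Normal, which did not pass (unadjusted p = 0.0609). In Model VS Normal it was a DEG without the first model rat (1.43, unadjusted p = 0.0116), with library totals (1.64, unadjusted p = 0.0106), with the upper quartile (1.24, unadjusted p = 0.0431), with at least 10 counts asked of every library (1.18, unadjusted p = 0.0363), with hepatocyte marker scaling (2.07, unadjusted p = 0.0263) and with limma voom (1.44), which alone of these took it past the adjusted threshold (adjusted p = 0.0282). Onecut1 remained a DEG of TA VS Normal without any 1 of the 6 rats, from 2.42 to 3.17 on the log2 scale, and passed the adjusted threshold without the third TA rat (adjusted p = 0.0199). In TA VS Model it was no longer a DEG without the first or second TA rat or without the first or second model rat (unadjusted p from 0.0521 to 0.112).

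The pair of C/EBP factors carried the DEG calls of Model VS Normal. Cebpb was at 654, 794 and 614 CPM in normal, 215, 184 and 282 CPM in model and 559, 377 and 503 CPM in TA livers. Its model range lay below both other groups, and its TA range lay below the normal range. Cebpb fell 3.02-fold in model livers, a log2 fold change of -1.60 ± 0.36 (SE; edgeR, adjusted p = 0.0398), with a value of -1.58 without the first model rat. It was 2.12-fold higher in TA than in model livers (1.08 ± 0.36, unadjusted p = 0.0171, adjusted p = 0.264), a DEG call that was lost without the first TA rat (unadjusted p = 0.0726) or the second model rat (unadjusted p = 0.0881). TA livers had a log2 fold change of -0.55 ± 0.23 against normal livers (unadjusted p = 0.0406, adjusted p = 0.481).

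Cebpa was at 391, 346 and 304 CPM in normal, 116, 148 and 196 CPM in model and 374, 447 and 276 CPM in TA livers. The model group lay below both others, and the normal and TA ranges overlapped. Cebpa was 2.26-fold lower in model livers, a DEG with a log2 fold change of -1.18 ± 0.33 (SE; edgeR, unadjusted p = 0.00720, adjusted p = 0.0654), and -1.03 without the first model rat. It was 2.39-fold higher in TA than in model livers (1.26 ± 0.36, unadjusted p = 0.00877, adjusted p = 0.252), and this DEG call held without any 1 of the 6 rats. TA VS Normal gave 0.05, with a 95% interval from -0.50 to 0.59.

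The drug-sensing receptors had the widest spread among model livers. Nr1i3 was at 192, 206 and 187 CPM in normal, 17.6, 23.3 and 142 CPM in model and 178, 160 and 241 CPM in TA livers. The third model rat was near the normal range, and the other model rats were far below it. Its log2 fold change, -1.68 ± 0.74 (SE; adjusted p = 0.180) in Model VS Normal and 1.67 ± 0.76 (adjusted p = 0.334) in TA VS Model, was the largest in size of the 9 members in both, and it passed neither threshold. Without the third model rat it was -3.27 (adjusted p = 0.00481 in edgeR's test) and 3.25 (adjusted p = 0.0516). Leaving out other single rats brought it as near to 0 as -1.27 and 1.23, and the adjusted p as high as 0.346 and 0.601. At -1.27 it was smaller in size than Cebpb, which ran from -1.80 to -1.47 in Model VS Normal. Nr1i2 was at 328, 358 and 430 CPM in normal, 31.1, 221 and 212 CPM in model and 251, 248 and 445 CPM in TA livers. Here the first model rat was the low one, and the second, which was low for Nr1i3, was close to the third. The log2 fold change of Nr1i2 was -1.26 ± 0.65 (adjusted p = 0.235) and 1.03 ± 0.68 (adjusted p = 0.458), or -0.80 and 0.56 without the first model rat. Against normal livers, TA livers were at -0.05 for Nr1i3 and -0.27 for Nr1i2, with 95% intervals from -0.53 to 0.43 and from -0.89 to 0.35. For both receptors the first and second TA rats lay below every normal rat and the third lay above every one. Leaving out 1 rat took the value of Nr1i3 as far as -0.24 and that of Nr1i2 as far as -0.60.

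**Figure D3:**
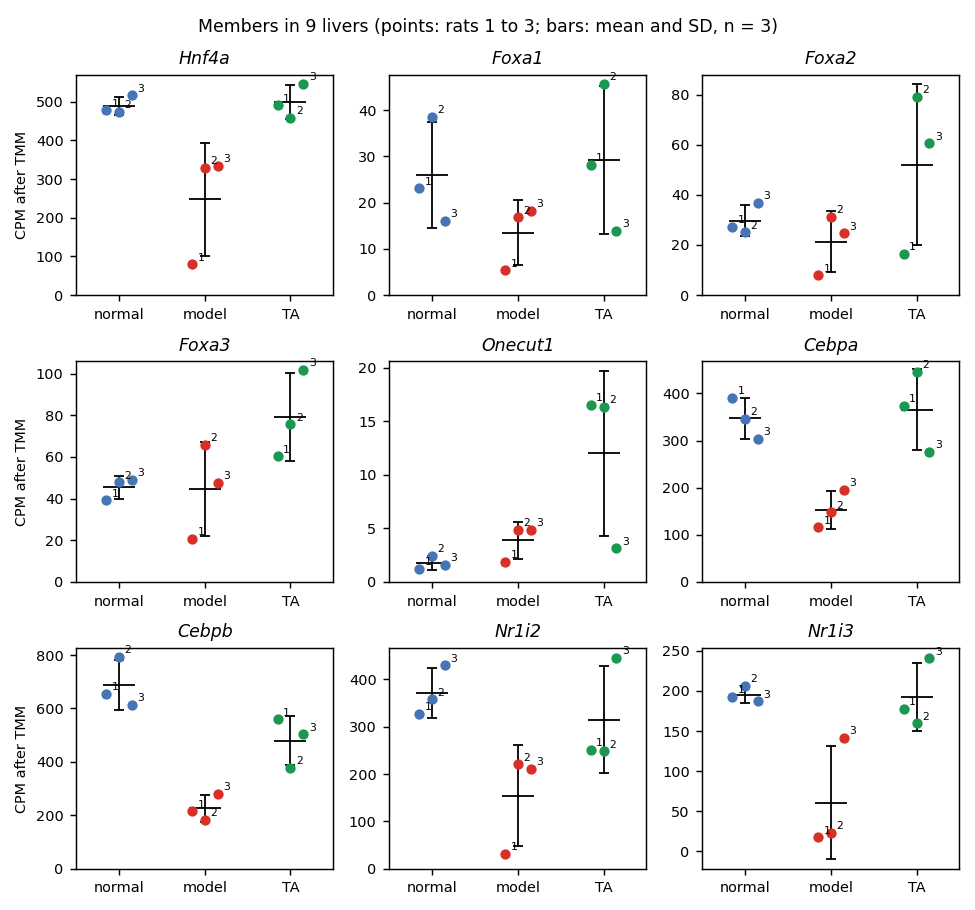
CPM of each member after TMM scaling, one numbered point per rat with the mean and SD of each group (n = 3), each panel on its own axis. The model points of Hnf4a, Cebpa, Cebpb, Nr1i2 and Nr1i3 lie below all normal and TA points, and the first 2 TA points of Onecut1, at 16.5 and 16.3 CPM, stand above all others.

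Ratios between related members were taken within each library, where scaling cancels, on raw counts. The ratio of Nr1i3 to Nr1i2 was 0.435 to 0.587 in normal and 0.541 to 0.708 in TA livers, and 0.566, 0.105 and 0.669 in the model livers, so that the second model rat alone was low in Nr1i3 relative to Nr1i2. Cebpb to Cebpa was 1.67 to 2.29 in normal, 1.24 to 1.85 in model and 0.845 to 1.82 in TA livers. Foxa1 to Foxa3 was 0.328 to 0.806 in normal, 0.255 to 0.385 in model and 0.136 to 0.603 in TA livers. Groups overlapped in all 12 comparisons of ratios, which include that of Foxa1 to Foxa2, and the exact permutation p was between 0.2 and 0.9 (two-sided; 0.8 to 0.9 after adjustment over the 12).

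**Figure D4:**
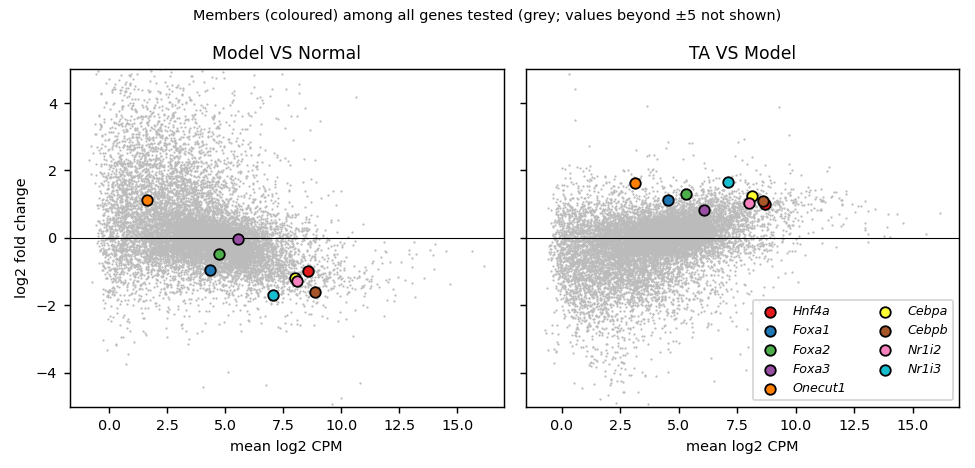
log2 fold change against mean log2 CPM for all genes tested (grey) and the members (coloured) in Model VS Normal and TA VS Model. The highly expressed members, Hnf4a, Cebpa, Cebpb, Nr1i2 and Nr1i3, lie among abundant genes. By eye, the cloud of these genes is itself tilted below 0 in Model VS Normal and above 0 in TA VS Model, which was not tested. Onecut1 lies among scarce genes.

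Other liver transcription factors were described from a list of 24 partners of the members, all of which were tested. In Model VS Normal their median log2 fold change was -0.75, with 19 of 24 negative. Ddit3, a C/EBP family member that dimerises with Cebpa and Cebpb, was the 1 partner past the adjusted threshold (-1.15, adjusted p = 0.0427). As DEGs 4 of the 24 were lower and 1 was higher, where 22.1% of all genes were called, 5.55% lower and 16.6% higher. The lower ones were Ddit3, the thyroid hormone receptor Thrb (-1.57), Rxra (-1.28), which is the dimer partner of Nr1i2 and Nr1i3, and the oxysterol receptor Nr1h3 (-1.18). The higher one was Cebpd (1.28), the C/EBP member of the acute phase response. Rxra was at 44.9, 93.3 and 35.8 CPM in normal, 20.1, 14.0 and 37.6 CPM in model and 77.6, 85.4 and 31.9 CPM in TA livers, so that the third model rat lay within the normal range and the third TA rat below it. Thrb was at 31.2, 36.8 and 29.0 CPM, 4.40, 9.94 and 18.5 CPM, and 31.3, 32.1 and 21.0 CPM, with the model group below both others. In TA VS Model the median was 0.47, and Rxra (1.45) and Thrb (1.37) were DEGs above 0 and Cebpd (-1.16) below. Over all genes 12.3% were DEGs there, 2.11% higher and 10.2% lower. Between TA and normal livers the fatty acid sensor Ppara (-1.15) was the 1 DEG, where 5.25% of all genes were DEGs, and the median of the partners was -0.19. The 10 cofactors, such as Ncoa1, Ncor1 and Med1, had medians of -0.10, 0.20 and 0.07 in Model VS Normal, TA VS Model and TA VS Normal. The coactivator Ncoa3 (1.11 in Model VS Normal) was the 1 DEG among them.

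Known targets were described by factor, from lists of textbook genes. Over all genes, 22.1% were DEGs in Model VS Normal, 12.3% in TA VS Model and 5.25% in TA VS Normal. The 8 Hnf4a targets had a median of -1.59 in Model VS Normal, all negative, with 4 DEGs: Cyp8b1 (-2.46), the sterol 12-alpha-hydroxylase of bile acid synthesis, the apolipoproteins Apoa2 (-1.99) and Apoc3 (-1.86), and the urea cycle enzyme Otc (-1.54). Their summed level was 13048 to 17175 CPM in normal, 1171 to 6667 in model and 8558 to 11766 CPM in TA livers, and these sums did not overlap. Apoc3, at 6354 to 9417 CPM in normal livers, was the largest part of the sums. Gene by gene, 5 of the 8 did not overlap in Model VS Normal, 2 in TA VS Model and 1 in TA VS Normal. Over all genes 38.2%, 23.1% and 15.1% did not overlap. Cyp8b1 was at 69.2, 269 and 487 CPM in the model livers, against 1164 to 2018 CPM in normal and 616 to 2048 CPM in TA livers. In TA VS Model their median was 1.14, with Cyp8b1 (2.19) as the DEG. The 7 Nr1i2 targets had medians of -1.50 and 1.52. Their DEGs in Model VS Normal were Cyp3a18 (-1.99), Cyp3a9 (-1.87) and the canalicular exporter Abcc2 (-1.61), and Cyp3a9 (1.55) was the DEG in TA VS Model. The 6 Nr1i3 targets had medians of -0.62 and 1.16, and Alas1, the rate-limiting enzyme of haem synthesis, was the 1 target of any list past the adjusted threshold (-1.96, adjusted p = 0.0234, in Model VS Normal; 1.70 in TA VS Model, a DEG). Alas1 was at 188, 297 and 218 CPM in normal, 44.0, 52.0 and 84.0 CPM in model and 378, 105 and 100.3 CPM in TA livers, and its first TA rat stood above every other liver.

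The 6 C/EBP targets had medians of -1.02 and 0.93, with the liver glycogen synthase Gys2 (-1.53) as the DEG in Model VS Normal and 0 DEGs in TA VS Model. The 5 Foxa targets had medians of -1.26 and 1.09, with 0 DEGs in Model VS Normal and Cpt1a (1.33), the carnitine palmitoyltransferase of fatty acid oxidation, in TA VS Model. The Onecut1 target Pfkfb1 had a log2 fold change of 0.09 in Model VS Normal and of 1.36 in TA VS Model, where it was a DEG. Pfkfb1 was at 29.1, 46.2 and 20.1 CPM in normal, 11.2, 46.1 and 43.9 CPM in model and 110.0, 68.9 and 80.3 CPM in TA livers, and every TA liver was above every other. Pfkfb1, which sets the level of fructose 2,6-bisphosphate, was also the 1 target that was a DEG in TA VS Normal (1.41; edgeR, unadjusted p = 0.00248, adjusted p = 0.151). For TA VS Normal the medians of the Hnf4a, Foxa, C/EBP, Nr1i2 and Nr1i3 targets were -0.44, -0.21, -0.22, -0.35 and 0.02. Cyp3a, Cyp2b and Cyp2c genes have near-identical copies, and their counts are uncertain where reads were shared.

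**Figure D5:**
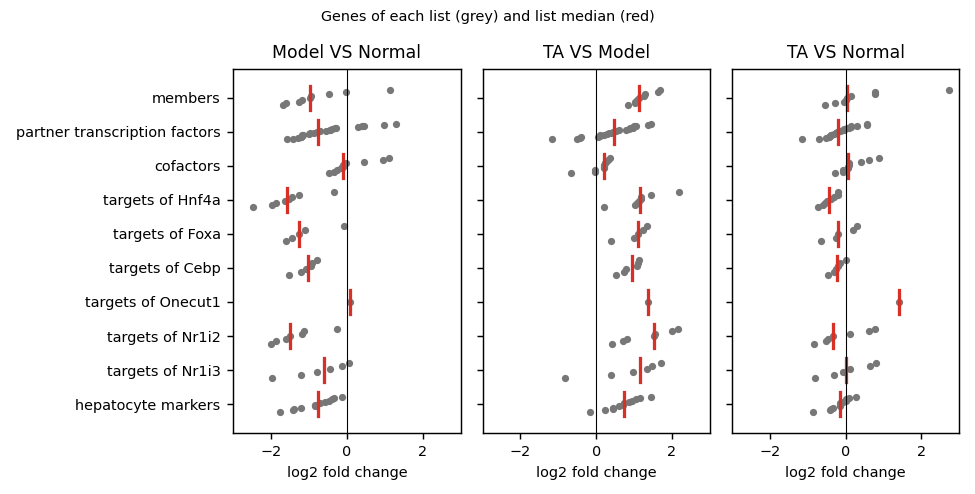
log2 fold change of each gene of the member, partner, cofactor, target and hepatocyte marker lists (grey points) with the list median (red line) in the 3 comparisons. Most medians lie below 0 in Model VS Normal and above 0 in TA VS Model, while the cofactors lie near 0 in all 3, at -0.10, 0.20 and 0.07.

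Markers of the cells that make up the liver moved with these groups. The 12 hepatocyte markers had a median log2 fold change of -0.77 in Model VS Normal, 0.72 in TA VS Model and -0.15 in TA VS Normal, with 0 called in any comparison by either rule of edgeR's test (1 at an unadjusted p under 0.05, in TA VS Normal). Their summed level was 44615, 128665 and 135337 CPM in the model livers, against 131364 to 214129 CPM in TA livers. Of the cholangiocyte markers 7 of 7 tested were DEGs and higher in model livers, with a summed level of 18.3 to 31.9 CPM in normal, 2020, 206 and 126 in model and 35.6 to 56.4 CPM in TA livers. Spp1 alone was at 1849 CPM in the first model rat, and the sums without it were 171, 160 and 99.3 CPM in the model livers. Of the stellate cell and myofibroblast markers 8 of 9 were DEGs and higher, with sums of 202 to 294 CPM, 12645, 1193 and 1473 CPM, and 670 to 1175 CPM. The first model rat, the lowest of the model group for 8 of the 9 members, had the highest sums of both. The medians of the macrophage, endothelial, lymphocyte and neutrophil markers were 0.80, -0.99, 0.61 and 2.08 in Model VS Normal, whereas TA VS Model gave -0.63, 1.01, -0.45 and -1.29. In Model VS Normal, 5 macrophage markers were higher (4 DEGs) and 3 lower (2 DEGs). Of the endothelial markers 2 were higher (1 DEG) and 3 lower (1 DEG). For lymphocytes 0 markers were DEGs, and for neutrophils 2 were, both higher, where 22.1% of all genes were DEGs. In TA VS Model 3 macrophage markers were higher and 5 lower, and 4 endothelial markers were higher and 1 lower. The part of these cells in the members' values was not tested.

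The members were also set against the hepatocyte markers. Those genes are themselves controlled by the members, so this scale can remove a difference that both share. With libraries scaled to the geometric mean of the 12 markers, the Model VS Normal log2 fold changes were -0.00 for Cebpa, -0.05 for Foxa1, -0.19 for Hnf4a and -0.30 for Cebpb. They were -0.60 for Nr1i2 and -0.91 for Nr1i3, and 0.34, 0.90 and 2.07 for Foxa2, Foxa3 and Onecut1. Onecut1 was the 1 member with an unadjusted p under 0.05 on this scale (edgeR, unadjusted p = 0.0263, adjusted p = 0.0867). In TA VS Model the values ran from -0.01 for Cebpb to 1.11 for Nr1i3, and 0 members were called by either rule or had an unadjusted p under 0.05 in edgeR's test. Against normal livers, Onecut1 (2.83) and Foxa3 (1.00) were DEGs on this scale. This scaling moved the median of all genes by 1.32 for Model VS Normal and by -1.14 for TA VS Model, and the DEGs of Model VS Normal were then 98.5% higher, against 74.9% on the TMM scale.

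The genes most like each member were found by Pearson's r of log2 CPM across the 9 livers, over the 7959 genes whose mean log2 CPM was 3 or more. These livers share the differences between groups and the low first model rat, so r is a description, and its value without that rat is given second. Hnf4a was closest to Cyp2c6v1 (0.997 and 0.982), a cytochrome P450, and Cbs (0.994 and 0.952), the cystathionine beta-synthase. Nr1i2 was closest to Igsf5 (0.992 and 0.953) and the asparaginase Aspg (0.990 and 0.965), and Nr1i3 to the mitochondrial kinase Pink1 (0.985 and 0.971) and Polr3gl (0.983 and 0.968). Cebpa was closest to Sec63 (0.978 and 0.965), of the endoplasmic reticulum translocon, and Ppa1 (0.974 and 0.959), and Cebpb to Uqcrh (0.977 and 0.984), a subunit of respiratory complex III, and Slc45a3 (0.971 and 0.967). Foxa1 was closest to Lmtk2 (0.981 and 0.956) and Atl2 (0.980 and 0.952), Foxa2 to Pxdc1 (0.927 and 0.851) and Rnf144b (0.920 and 0.871), and Foxa3 to Dph5 (0.936 and 0.948) and Nipal1 (0.927 and 0.828). Onecut1 was closest to Sin3a (0.970 and 0.974), a corepressor scaffold, and Clint1 (0.944 and 0.942).

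Among the 36 pairs of members, Hnf4a and Nr1i2 were the most alike (0.980, and 0.813 without the first model rat). Without that rat the pair most alike was Hnf4a and Cebpb (0.842, and 0.677 with it), followed by Cebpb and Nr1i3 (0.828, and 0.853 with it). The forkhead members were tied to Hnf4a mainly through the first model rat, at 0.757, 0.728 and 0.769 with it and 0.135, 0.244 and 0.199 without it for Foxa1, Foxa2 and Foxa3. Onecut1 had values from -0.175 to 0.503 with the other members, and from -0.634 (with Nr1i2) to 0.464 without the first model rat.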

How the data were processed

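Liver RNA of 9 rats was sequenced with a poly(A) kit. Per the methods, reads passed through Trimmomatic and Cutadapt, were aligned by STAR, assigned to genes by HTSeq-count and tested by the authors with DESeq2; the methods name a human and the labels a mouse genome build, while the symbols are rat symbols. Strand use was not given in the sources used here.

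The authors deposited raw counts per gene, the base of every test, as well as a signal (counts divided by DESeq2 size factors, not used for values here) and FPKM values, used for levels per length. The authors' fold changes and p-values were not used. The counts of the model rats were identical in both tables, and TA VS Normal used the 16730 genes in both.

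The software was edgeR 4.0.16 under R 4.3.3, with DESeq2 1.42.0 and limma 3.58.1 for the alternatives. The test was edgeR's quasi-likelihood test (TMM, its filter on low counts, libraries of the groups compared), checked on simulated data. Genes were called at a Benjamini-Hochberg adjusted p under 0.05 or, as DEGs, at an absolute log2 fold change above 1 and p under 0.05. SE is the log2 fold change over the square root of F. P-values from the fit set the difference between groups against the spread between these rats. log2 CPM for likeness used a prior count of 2.

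The members and gene lists were chosen with earlier results of these data known. A few genes of these lists are not reported here and were left out of the lists' counts. All members were described, partner factors could be named freely, and from other lists at most 4 genes with the smallest p in a comparison were named. Same-numbered rats deviated together from their group means in TA VS Normal (r from 0.233 to 0.452 over 3 pairs, mean -0.169 for other pairs). This r ran from -0.0547 to 0.210 for Model VS Normal and from -0.0382 to 0.213 for TA VS Model. Deviations from a mean cancel within a group, so positive r for same-numbered pairs brings negative r for the others. This contrast alone therefore cannot show whether rats were paired. The study assigned rats to groups at random. Whether same-numbered rats were handled together was not stated and was not tested. Among the alternatives the rat number entered as a replicate block, and not for TA VS Normal only. The other alternatives were other normalizations, filters and tools, all 9 libraries in 1 fit, and leaving out each rat. Counts give the depth per gene, and intervals from the fit are for the difference between groups, given the spread between rats.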

Additional observations from a re-analysis of the deposited data

How the results depend on the processing

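Of the members' log2 fold changes under settings that kept all rats, 294 kept their direction and side of the adjusted threshold, 16 reversed, 10 came to pass the threshold and 4 no longer passed it. Library totals moved the median of all genes by 0.63, -0.48 and 0.19 and the upper quartile by 0.13, -0.11 and 0.051 in Model VS Normal, TA VS Model and TA VS Normal. Library totals made 94.4% of the DEGs of Model VS Normal higher, against 74.9%, and 3.64% of those of TA VS Model, against 17.2%.

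In Model VS Normal, Foxa2 reversed to 0.018 (library totals), 0.34 (hepatocyte markers) and 0.019 (voom), and Foxa3 to 0.50, 0.10 (upper quartile), 0.90, 0.040 (at least 10 counts in every library) and 0.44. Cebpb in TA VS Model became -0.014 with hepatocyte markers. In TA VS Normal, Hnf4a became 0.19 (library totals), 0.049 (upper quartile), 0.22 (hepatocyte markers), 0.014 (at least 10 counts) and 0.028 (all 9 libraries), and Nr1i3 0.13 and 0.20. The adjusted p of Cebpb in Model VS Normal ran from 9.61e-07 to 0.683 over the settings and from 0.0245 to 0.171 over rats left out, and that of Onecut1 in TA VS Normal from 0.000770 to 0.181 and from 0.0199 to 0.470.

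In Model VS Normal the members called at the adjusted threshold (1) became 0 with library totals, hepatocyte markers, at least 10 counts or the replicate block, 2 with DESeq2, the newer fit or all 9 libraries, and 4 with voom; all genes (1002) became 1980 with library totals, 2969 with hepatocyte markers, 465 with at least 10 counts, 2735 with DESeq2, 3433 with voom and 1757 with all 9 libraries. The member DEGs (2) became 1 with library totals or hepatocyte markers, 5 with DESeq2 and 4 with voom or the replicate block, and all DEGs (2818) 4965 with hepatocyte markers. In TA VS Model the members at the adjusted threshold (0) became 2 with DESeq2 and 1 with voom, and all genes (0) 1535 with hepatocyte markers, 526 with DESeq2 and 169 with voom. The member DEGs (3) became 0 with library totals or hepatocyte markers, 6 with DESeq2 and 5 with all 9 libraries, and all DEGs (1571) 2447 with library totals and 3548 with hepatocyte markers. In TA VS Normal the members at the adjusted threshold (0) became 1 with DESeq2, and all genes (32) 56 with library totals or hepatocyte markers, 76 without a filter, 341 with DESeq2, 126 with voom, 14 with all 9 libraries and 203 with the replicate block, which changed no member's call there. The member DEGs (1) became 2 with hepatocyte markers, and all DEGs (640) 403 with at least 10 counts. The cause of these shifts was not tested.

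When single rats were left out, the members at the adjusted threshold ran from 0 to 3, 0 to 0 and 0 to 1 in Model VS Normal, TA VS Model and TA VS Normal, and the member DEGs from 2 to 3, 2 to 4 and 1 to 2. All genes at the adjusted threshold ran from 0 to 2537, 0 to 1 and 1 to 61, and all DEGs from 2061 to 3917, 792 to 2792 and 525 to 918. Foxa3 in Model VS Normal ran from -0.41 to 0.30, and in TA VS Normal Hnf4a ran from -0.070 to 0.049, Foxa1 from -0.35 to 0.55, Cebpa from -0.13 to 0.22 and Nr1i3 from -0.24 to 0.062. Differences in log2 ratio ran from -0.57 to -0.28, -0.41 to 0.15 and -0.82 to -0.26 for Cebpb to Cebpa, from -1.23 to -0.59, -0.22 to 0.86 and -1.09 to -0.020 for Foxa1 to Foxa3, from -0.82 to 0.088, -0.83 to 0.62 and -1.19 to 0.26 for Foxa1 to Foxa2, and from -1.11 to 0.22, 0.026 to 1.36 and 0.11 to 0.35 for Nr1i3 to Nr1i2. With 15 to 38 reads in normal livers, Onecut1 is the member that depth limits most.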

Other observations

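The TA rats were not alike in these factors. The first and second TA rats were the highest of all 9 livers for Onecut1, while the third, at 3.13 CPM, was the lowest of the TA group for Onecut1, Foxa1 (13.9 CPM) and Cebpa (276 CPM) and the highest of all 9 livers for Hnf4a (547 CPM), Foxa3 (102 CPM), Nr1i2 (445 CPM) and Nr1i3 (241 CPM). The related factor Onecut2 was at 10.5, 14.5 and 3.95 CPM in normal, 2.15, 6.38 and 7.43 CPM in model and 7.83, 11.6 and 1.42 CPM in TA livers, so that the third TA rat was again the lowest of its group. The targets of Nr1i2 did not share 1 order of the TA rats: Cyp3a2 was at 558, 1103 and 192 CPM, lowest in the third rat, and Cyp3a23/3a1 at 2137, 3457 and 5861 CPM, highest in it. These values were picked after they had been seen, were not tested, and single rats have no replicate.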
